A study of Drosophila melanogaster with 4 samples.

Results

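The comparison described here set wing imaginal discs that carried Yorkie together with an inverted-repeat construct against taiman (Yki+Tai-IR) against control discs that carried GFP alone. Its members are the 7804 of 13990 genes in the deposited table that had a mean of 1 FPKM or more over all 4 libraries and were not small-RNA genes. FPKM is fragments per kilobase of transcript, scaled to the size of the library. For each gene the difference was taken in log2(FPKM + 1), a scale that understates the change of genes with low values, and a gene was counted as higher or lower when that difference reached 1 (2-fold).

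RNA came from wing discs of wandering third-instar Drosophila larvae. These discs are epithelial sacs from which the adult wing and notum form. There were 4 genotypes: enGFP, enGFP+Yki, enGFP+Yki+Tai and enGFP+Yki+Tai-IR, written here as GFP, Yki, Yki+Tai and Yki+Tai-IR. All of them carried GFP under engrailed-GAL4, a driver of the posterior compartment, so each library mixed posterior cells that held the transgenes with anterior cells that did not. Discs were pooled within a genotype and sequenced as 1 library each, so no difference below has a replicate check or a test, and values describe these libraries only. The design text of the series concerns Tai as a partner of Yki, and the comparison with GFP asks how much of the Yki state is seen when the construct against tai is present. The Yki library is therefore given beside Yki+Tai-IR throughout, and both are set against the same GFP library.

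Yorkie is the transcriptional coactivator restrained by the Hippo kinase cascade. When it enters the nucleus it acts with the DNA-binding protein Scalloped to raise genes for growth and survival, together with upstream Hippo regulators that feed back on it. Taiman is a steroid-receptor coactivator known for its work with the ecdysone receptor, and ecdysone is the hormone that times the end of larval life and the maturation of imaginal discs. Overgrown or damaged discs are known to secrete the relaxin-like peptide Ilp8, which delays pupariation.

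The yki gene itself was at 71.5 FPKM in GFP, 5034 with Yki, 4535 with Yki+Tai and 2563 with Yki+Tai-IR. All the libraries with a yki transgene thus lay far above GFP, and the ratio of Yki+Tai-IR to GFP was 35.8 (95% exact binomial interval on estimated fragments, 33.3 to 38.6). Intervals of this kind cover counting error only. The yki signal of Yki+Tai-IR was 0.509 times that of the Yki library (0.502 to 0.516), so these libraries differed in yki transcript as well as in the tai construct.

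Transcript of tai (chr2L:9166778-9250211, dm6) stood at 27.1 FPKM in GFP, 25.0 with Yki, 1260.3 with Yki+Tai and 22.9 with Yki+Tai-IR. The Yki+Tai-IR value was the lowest of the set, but close to GFP, with a ratio of 0.844 (0.787 to 0.905). Whole discs include anterior cells, and fragments of the construct itself would fall on tai if they were sequenced. The share of either in this value was not tested.

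Of the posterior genes, en stood at 43.2 FPKM in GFP, 32.6 with Yki, 63.2 with Yki+Tai and 23.9 with Yki+Tai-IR, a ratio of 0.553 (0.493 to 0.62) for Yki+Tai-IR to GFP. Its paralog inv was at 35.8 FPKM in Yki+Tai-IR against 39.0 in GFP, and the ligand gene hh at 34.6 against 39.8. The anterior gene ci, which encodes the Hedgehog effector, was at 103 against 128 FPKM, and the Hedgehog receptor gene ptc at 32.3 against 54.0. The ratio for ptc was 0.598 (0.559 to 0.639).

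Wing disc markers were present in both libraries: nub stood at 65.4 FPKM in Yki+Tai-IR and 74.8 in GFP, vg at 42.2 and 44.0, and pnr at 11.6 and 15.3. These are examples from a longer set of markers. Some leg disc genes stood at similar levels, such as fd96Cb at 51.0 and 46.2 FPKM and Sp1 at 27.9 and 43.9. Depth, read from the spacing of low FPKM values, came to 8.01 M fragments in GFP, 9.51 M in Yki, 12.5 M in Yki+Tai and 8.26 M in Yki+Tai-IR, so the libraries compared here were about equally deep. On a transcript of 2 kb, 3 fragments came to 0.209 FPKM in GFP and 0.203 in Yki+Tai-IR, and lower values were not resolved. A value of exactly 0 may mark an estimate that failed rather than absence: 18 genes had such a 0 in 1 library while another library gave 10 FPKM or more. For this reason a 0 is reported as listed, with no fold.

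The libraries also differed in genes of other tissues. All 19 listed leg disc genes were measured, and their summed level was 445.4 FPKM in GFP, 104.3 with Yki, 168.5 with Yki+Tai and 322.9 with Yki+Tai-IR. None of the 19 was listed at 0 in GFP or Yki+Tai-IR. Myoblast genes summed to 277.0 FPKM in GFP, 173.6 in Yki and 208.1 in Yki+Tai-IR, and hemocyte genes to 243.1, 205.4 and 169.5 FPKM. In bulk samples, fewer cells of a type and less RNA per cell cannot be told apart.

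Over the 7804 genes, 253 (3.24%) stood 2-fold or more above GFP in Yki+Tai-IR and 119 (1.52%) 2-fold or more below. At 4-fold the counts were 76 higher and 15 lower. Most genes lay close to the control: 82.3% differed by under 0.5 in log2(FPKM + 1), the median difference was 0.01, and the central 90% ran from -0.64 to 0.78. The Yki library against the same GFP library had the opposite balance, with 145 genes (1.86%) higher and 236 (3.02%) lower. Counts in the gene lists below are to be read beside these shares, also where the shares are not repeated.

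**Figure D1:**
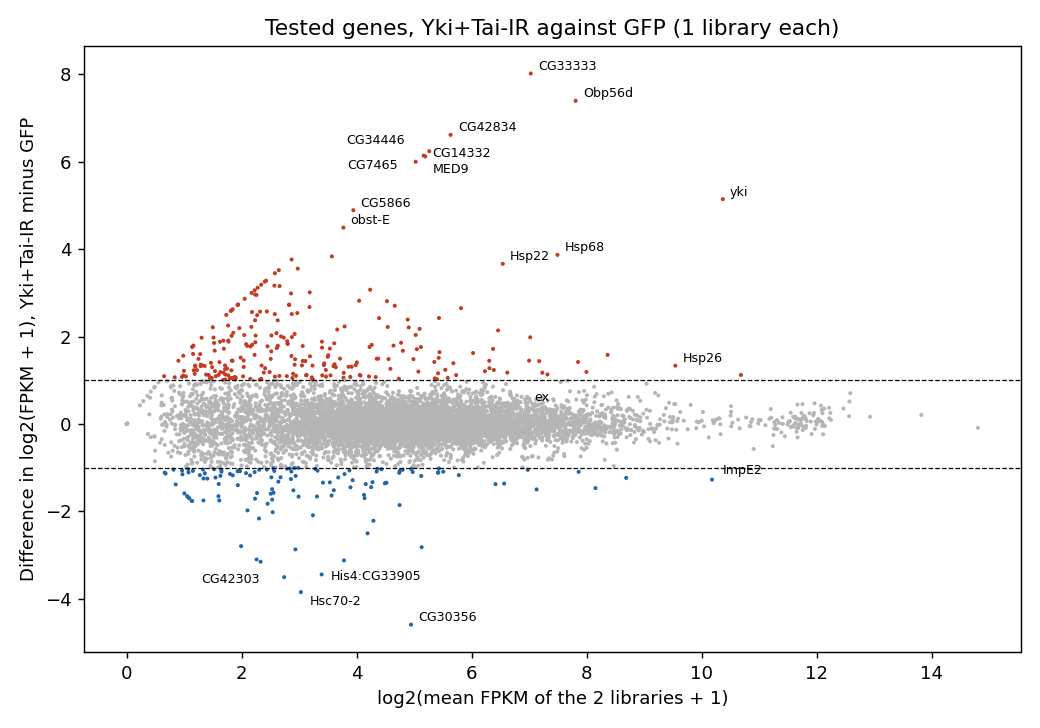
Each point is 1 of the 7804 genes, with the log2 of the mean FPKM of GFP and Yki+Tai-IR (plus 1) on the x axis and the difference in log2(FPKM + 1) on the y axis. The dashed lines mark the 2-fold limits, 253 genes lie on or above the upper limit in red, and 119 lie on or below the lower limit in blue, most of them at low mean levels.

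The genes counted as higher had low control values. Their median was 1.46 FPKM in GFP and 9.84 in Yki+Tai-IR, against 26.4 and 26.1 FPKM over all 7804 genes. Counting a rise over GFP itself favours low values in GFP, as counting a fall favours low values in Yki+Tai-IR. Of the 253, 29 were listed at 0 in GFP and 72 were under 5 FPKM in both libraries. The filter took the mean over all 4 libraries, so a gene low in GFP could enter through Yki+Tai-IR alone. The genes counted as lower had medians of 8.54 FPKM in GFP and 2.54 in Yki+Tai-IR, and 11 of the 119 were listed at 0 in Yki+Tai-IR. Just inside the limits stood CG30104 at 1.006 and CR33963 at -1.002, and just outside them Dbp80 at 0.997 and mirr at -0.9997.

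Known Yki targets in Yki+Tai-IR discs lay on either side of their GFP levels, and some lay between GFP and Yki. The gene ex, which encodes an upstream Hippo regulator and is a standard Yki reporter, stood at 104 FPKM in GFP, 222 with Yki, 349 with Yki+Tai and 143 with Yki+Tai-IR. Yki+Tai-IR thus lay between GFP and Yki, at 1.37 times GFP (1.32 to 1.42), where Yki was at 2.13 times (2.06 to 2.2). Transcript of kibra, another upstream regulator, stood at 14.1, 33.8, 87.4 and 28.5 FPKM in the same order. Its ratio to GFP was 2.02 (1.82 to 2.23) in Yki+Tai-IR and 2.40 (2.18 to 2.64) in Yki. In log2(FPKM + 1) kibra differed from GFP by 0.96 in Yki+Tai-IR, so it was not counted as higher.

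Other targets were close to GFP, lower or higher. The inhibitor of apoptosis gene th (Diap1) stood at 233 FPKM in GFP, 277 in Yki and 251 in Yki+Tai-IR. CycE, which drives entry into S phase, was at 27.2, 30.4 and 31.9 FPKM, and wg, which encodes the Wingless ligand, at 38.2, 40.3 and 42.7. The growth regulator dm (Myc) went the other way, at 61.3 FPKM in GFP, 58.9 in Yki and 36.2 in Yki+Tai-IR, at a ratio of 0.591 (0.558 to 0.627). The insulin receptor gene InR was likewise low, at 7.76 FPKM in Yki+Tai-IR against 14.1 in GFP, and fj, which encodes a Golgi kinase, was at 75.4 against 93.4. The cytokine gene upd2 was counted as higher, at 2.12 against 0.411 FPKM, from 31 and 6 estimated fragments.

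As a list, Yki targets had 19 measured members, of which 2 were higher by 2-fold or more (CG14059 and upd2) and 0 lower, beside 3.24% and 1.52% of all genes. Of these, upd2 reached a mean of 1 FPKM only through Yki+Tai-IR, so the filter favours its place above GFP. The list median was 0.11 in Yki+Tai-IR against GFP and 0.13 in Yki against GFP, beside 0.01 and -0.00 over all genes. Genes of the Hippo pathway itself mostly lay slightly below the control: 28 of 38, a set that includes yki, were below 0, with a median of -0.13. Among them mask, which encodes a cofactor of Yki, stood at 71.7 FPKM in GFP and 41.5 in Yki+Tai-IR. Transcript of CG10741 (Tgi, a repressor that competes for Scalloped) stood at 72.1 and 43.8 FPKM. Scalloped itself (sd) was at 112 and 110 FPKM, hpo at 46.1 and 45.5, and wts at 20.03 and 20.16.

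Genes that stood far above GFP in Yki did not behave as 1 group in Yki+Tai-IR. CG14059, which encodes Ilp8, stood at 0.188 FPKM in GFP, 26.02 with Yki, 30.9 with Yki+Tai and 9.66 with Yki+Tai-IR. It was high in every library with a yki transgene, but Yki+Tai-IR held 0.371 times the Yki level (0.267 to 0.51). The transcription factor gene chinmo, which marks early temporal identity, stood at 1.254 FPKM in GFP, 8.21 with Yki, 9.21 with Yki+Tai and 8.18 with Yki+Tai-IR. For chinmo, Yki+Tai-IR held 0.997 times the Yki level (0.869 to 1.14), and the ratio to GFP was 6.53 (4.95 to 8.74).

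Several further genes stood as high in Yki+Tai-IR as in Yki, or higher. They were named after their values were seen. The dual oxidase maturation factor gene mol was at 2.04 FPKM in GFP, 10.3 in Yki and 9.88 in Yki+Tai-IR. The lipid-transfer gene Esyt2 was at 5.71, 36.2 and 42.8 FPKM, and asparagine-synthetase, which makes asparagine from aspartate, at 8.47, 33.3 and 48.7. The nuclear receptor gene ftz-f1 was at 2.69, 9.62 and 9.86 FPKM, and yellow-b at 7.50, 24.4 and 28.8. These 5 genes had ratios to Yki of 0.963 (0.778 to 1.19) for mol, 1.18 (1.08 to 1.3) for Esyt2, 1.46 (1.3 to 1.64) for asparagine-synthetase, 1.02 (0.9 to 1.17) for ftz-f1 and 1.18 (1.02 to 1.37) for yellow-b.

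The 10 genes with the highest difference in Yki against GFP were yki, MED9, CG14059, CG34446, Gr64a, CG32736, Gr64c, Gr64e, CG42372 and mthl8. In Yki+Tai-IR all 10 were counted as higher than GFP, which is a description only. The choice of the most extreme genes of Yki favours low values in GFP, the library that both comparisons share. The gustatory receptor genes Gr64a, Gr64c and Gr64e, which lie side by side on arm 3L, stood at 12.6, 7.46 and 6.998 FPKM in Yki+Tai-IR and at 16.9, 12.0 and 10.6 in Yki. In GFP, Gr64c stood at 0.0927 FPKM and the others were listed at 0. Gr64b has the same annotated span as Gr64c, and Gr64d overlaps Gr64e, so these separate values depend on how fragments were shared. The receptor gene mthl8 was at 7.34 FPKM in Yki+Tai-IR, 9.59 in Yki and listed at 0 in GFP. CG32736 (sloth1) was at 8.72 FPKM, 14.9 and 0.00187, and CG42372 was at 1.95 FPKM, 9.94 and listed at 0. MED9, a Mediator subunit gene, shares its locus with CG42518, and their sum was 60.3 FPKM in GFP, 78.7 in Yki and 78.7 in Yki+Tai-IR, so the fold of MED9 alone depends on how fragments were shared between the pair.

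The wound-response and JNK list, which holds CG14059, chinmo, yellow-b and ftz-f1, had 35 measured genes, of which 5 were higher by 2-fold or more and 0 lower, beside 3.24% and 1.52% of all genes; its median was 0.20. The fifth was upd2, which reached a mean of 1 FPKM only through Yki+Tai-IR. In Yki against GFP the list had 4 higher and 1 lower, beside 1.86% and 3.02% of all genes, and a median of 0.14. The JNK phosphatase gene puc, a standard JNK reporter, stood at 17.3 FPKM in GFP, 19.1 in Yki and 18.2 in Yki+Tai-IR. The matrix metalloprotease gene Mmp1 was at 33.9, 38.2 and 26.7 FPKM, Mmp2 at 16.4, 10.9 and 8.19, and the protease-like gene scaf at 32.6, 28.6 and 16.2. Of these 4 genes, puc alone was above GFP in Yki+Tai-IR.

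**Figure D2:**
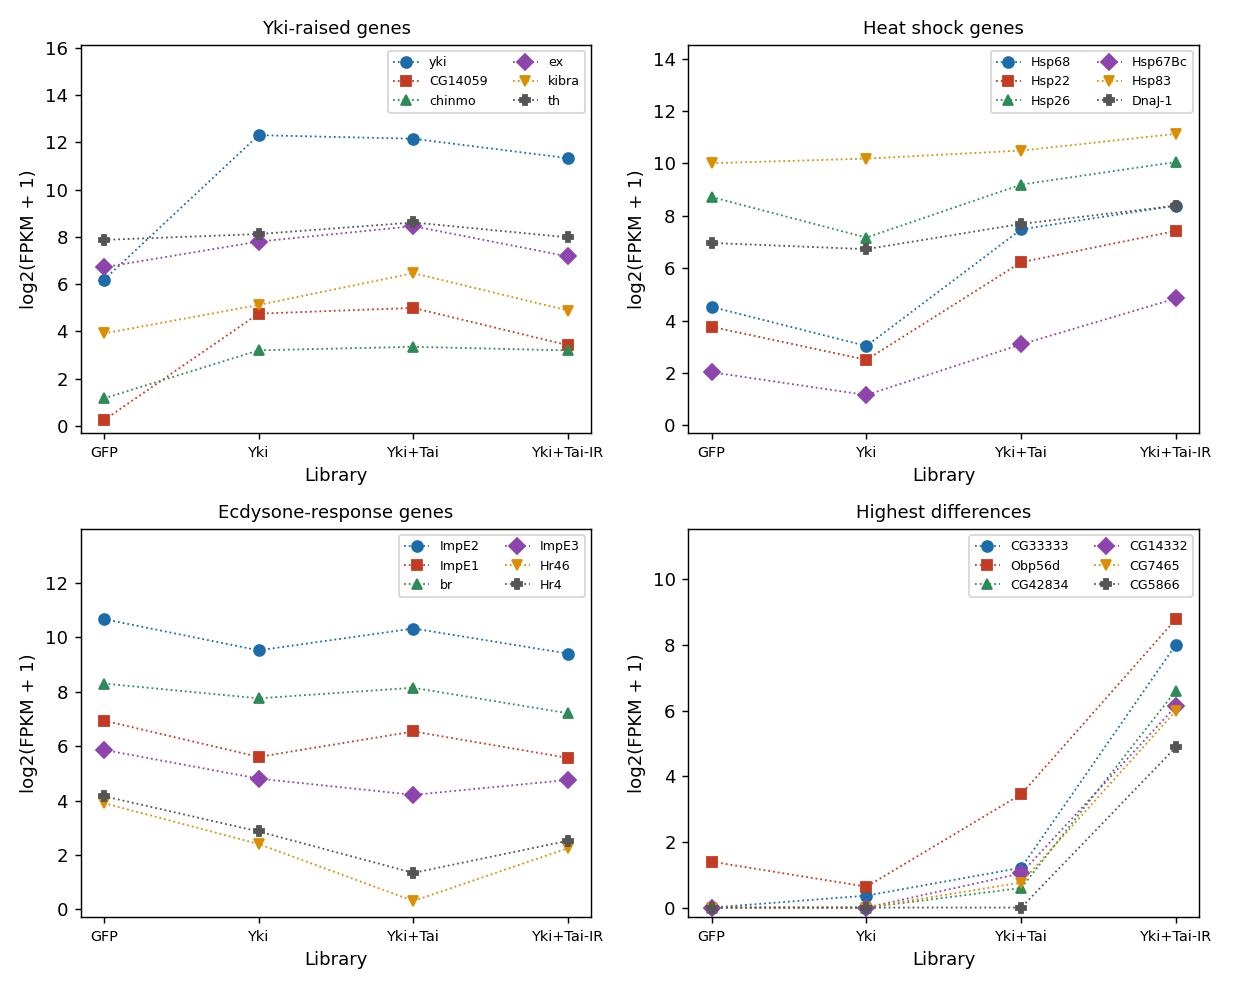
Each panel plots log2(FPKM + 1) on the y axis for 6 genes in the 4 libraries on the x axis, 1 point per library, with dotted lines to guide the eye. Transcript of ex lies between its GFP and Yki levels in Yki+Tai-IR (143 FPKM against 104 and 222), Hsp68 reaches 335 FPKM, ImpE2 is at 677 FPKM against 1636 in GFP, and CG33333 is at 258 FPKM against 0 in the table for GFP.

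Germline and piRNA genes, which the title of the series names as Yki and Tai outputs, had list medians near 0 in Yki+Tai-IR against GFP. Single genes lay on either side of GFP. The translational repressor gene nos stood at 0.0578 FPKM in GFP, 1.02 with Yki, 2.38 with Yki+Tai and 0.168 with Yki+Tai-IR. The piRNA effector gene piwi stood at 0.690, 3.16, 7.06 and 1.42 FPKM, and Yki+Tai-IR was at 2.06 times GFP (1.1 to 4.04) and 0.449 times Yki (0.291 to 0.679). For the differentiation gene bam the table gave 0 in GFP, 1.57 FPKM with Yki, 2.13 with Yki+Tai and 0.936 with Yki+Tai-IR. In all 3 genes the Yki+Tai-IR value was the lowest among the libraries with a yki transgene, at values under 1.5 FPKM.

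The germ cell helicase gene vas was at 0.357 FPKM in GFP, 0.201 in Yki and 0.346 in Yki+Tai-IR, under 1 FPKM in every library. The Tudor-domain gene krimp, a piRNA factor with enough fragments to resolve, stood at 20.5 FPKM in GFP, 37.2 with Yki, 51.2 with Yki+Tai and 12.2 with Yki+Tai-IR. Its Yki+Tai-IR value was below GFP, at a ratio of 0.595 (0.503 to 0.701). Among 14 measured germline genes 0 passed 2-fold upward and 0 downward, with a median of -0.12, and of 24 piRNA genes again 0 and 0, with a median of -0.04. Among all genes 3.24% and 1.52% did, so counts of 0 in lists this short are no result. In Yki against GFP the germline list had 3 higher and the piRNA list 2, beside 1.86% of all genes, with medians of 0.09 and 0.33.

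Several of the highest differences of the comparison were in genes at under 10 FPKM in all the other libraries. The odorant-binding protein gene Obp56d stood at 1.64 FPKM in GFP, 0.555 with Yki, 9.96 with Yki+Tai and 443 with Yki+Tai-IR. CG33333 was listed at 0 in GFP, stood at 0.287 FPKM in Yki and 1.32 in Yki+Tai, and reached 258 in Yki+Tai-IR. CG7465 was listed at 0 in GFP and Yki, and stood at 0.696 FPKM with Yki+Tai and 63.0 with Yki+Tai-IR. The larval cuticle gene obst-E, whose product binds chitin, stood at 0.158, 2.80, 1.93 and 25.1 FPKM. These levels were high in 1 library only and rest on that single pool of discs.

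CG33333 has close neighbours that were high in the same library. On arm 3R, within chr3R:17406678-17422202 (dm6), lie 11 genes of the table, and 10 of them were listed at 0 in GFP. In Yki+Tai-IR, CG5866 stood at 28.7 FPKM, CG33333 at 258, CG42834 at 97.1, CG14332 at 69.5 and CG42798 at 11.3. CG42822 and CG42835 were at 2.07 and 2.09 FPKM, CG17283 was at 0.173, and the other 3 were listed at 0. In Yki+Tai the highest value in the span was 1.32 FPKM, for CG33333.

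**Figure D3:**
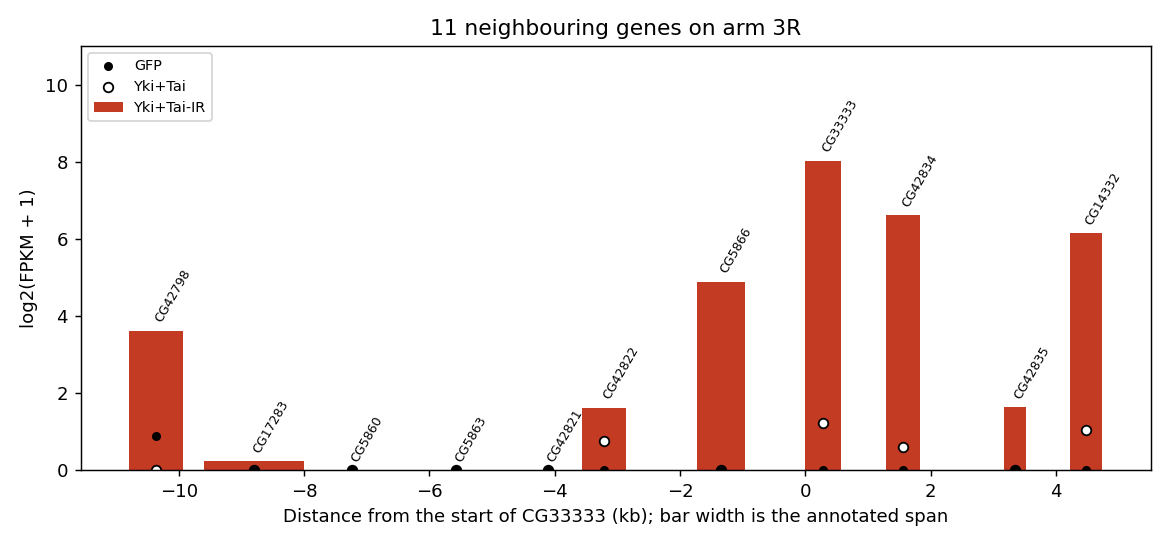
The bars give log2(FPKM + 1) in Yki+Tai-IR for 11 neighbouring genes on arm 3R, placed by distance in kb from the start of CG33333, with bar width equal to the annotated span. Filled points (GFP) lie at 0 for every gene except CG42798, and open points (Yki+Tai) reach at most 1.32 FPKM.

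Runs of this kind, chosen after the values were seen, were counted among the higher and the lower genes with a known position. Taking 3 or more counted genes with gaps under 10 kb, 33 of 248 higher genes lay in 8 runs, and 0 of 117 lower genes did. The sets differ in size and no background share was computed. Whether higher genes lie closer together than other genes was not tested. One run on arm 2R held 6 genes in 8.8 kb: CG34446 had a listed 0 in GFP and 74.6 FPKM in Yki+Tai-IR, CG30196 stood at 4.74 and 39.3 FPKM, and CG34445 at 7.21 and 37.2. CG34446 was also at 21.7 FPKM in Yki and listed at 0 in Yki+Tai. A run on arm 3L held CG11594 and the 6 Gr64 genes, which were high in all 3 libraries with a yki transgene. Some of the Gr64 spans overlap, so their separate values and their count depend on how fragments were shared. CG11594 stood at 0.853 FPKM in GFP, 12.3 with Yki, 17.0 with Yki+Tai and 11.3 with Yki+Tai-IR.

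Other genes with large differences were named after their values were seen, and they cover unlike functions. The vesicle protein gene Syt4 (a synaptotagmin) stood at 0.553 FPKM in GFP, 0.610 with Yki, 0.439 with Yki+Tai and 21.1 with Yki+Tai-IR. The cation channel gene Ih stood at 0.230 FPKM in GFP, listed at 0 in Yki, 0.146 with Yki+Tai and 13.5 with Yki+Tai-IR. Both were high in Yki+Tai-IR alone, at ratios to GFP of 38.2 (22.1 to 72.7) and 58.6 (32.3 to 119). The yellow gene y was at 7.33 FPKM against 0.0676, the tyrosine hydroxylase gene ple at 3.49 against 0.240, and the dopa decarboxylase gene Ddc at 4.53 against 1.60, with Ddc highest in Yki+Tai at 16.8.

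Heat shock genes, which encode chaperones induced by protein damage and other stress, were the list with the most genes counted as higher. Of 22 measured members 11 were at least 2-fold higher and 1 lower, beside 3.24% and 1.52% of all genes, and the list median was 0.72 against 0.01 over all genes. That median depends on low-level members: it was 0.17 over the 19 members that averaged at least 5 FPKM, and 0.31 over 25 genes with no FPKM filter. Hsp68 stood at 22.01 FPKM in GFP, 7.17 with Yki, 178 with Yki+Tai and 335 with Yki+Tai-IR. The mitochondrial small heat shock gene Hsp22 stood at 12.6, 4.66, 74.0 and 171 FPKM. Both were lowest in Yki and highest in Yki+Tai-IR, with ratios of Yki+Tai-IR to GFP of 15.2 (13.7 to 17.0) and 13.6 (11.3 to 16.5).

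Several other members were likewise highest in Yki+Tai-IR. The small heat shock gene Hsp26 stood at 421 FPKM in GFP, 143 with Yki, 585 with Yki+Tai and 1064 with Yki+Tai-IR, and its neighbour Hsp67Bc at 3.08, 1.23, 7.53 and 27.8. The co-chaperone gene DnaJ-1 was at 124, 105, 206 and 334 FPKM, and starvin (stv), which recruits Hsp70 to damaged proteins, at 41.4, 27.0, 87.7 and 114.5. The Hsp90 gene Hsp83 was at 1030, 1164, 1441 and 2244 FPKM. For all 5 of these genes Yki+Tai-IR was the highest library, and Yki+Tai was second.

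The near-identical Hsp70 genes divide fragments among themselves, so each value is uncertain. Hsp70Bbb stood at 51.2 FPKM in GFP, 264 with Yki, 277 with Yki+Tai and 205 with Yki+Tai-IR, while Hsp70Ba stood at 0.272, 0.138, 4.95 and 10.3. Not all members were highest in Yki+Tai-IR. Hsc70-4, the main constitutive Hsp70, was at 2901 FPKM in GFP and 3254 in Yki+Tai-IR. Hsp23 was at 3587 and 2899 FPKM, and Hsp27 at 2823 and 1988. Yki against GFP gave the list 1 higher member, 4 lower and a median of -0.30. The discs were collected over several dissection sessions, and what differed between sessions of the pools was not tested.

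Detoxification genes included some that were higher. Among 24 measured glutathione S-transferase genes 3 passed 2-fold upward and 0 downward, beside 3.24% and 1.52% of all genes. The 3 included GstE7, at 3.44 FPKM against 0.666 in GFP, which reached a mean of 1 FPKM only through Yki+Tai-IR. Of the 24, 18 lay above 0, with a median of 0.43 against -0.15 in Yki. GstE6 stood at 2.99 FPKM in GFP, 6.02 with Yki, 13.96 with Yki+Tai and 32.6 with Yki+Tai-IR, and GstD3 at 67.4, 94.9, 82.1 and 186. The abundant GstD1, a common reporter of oxidative stress signalling, stayed close to the control, at 1211 FPKM in GFP and 1319 in Yki+Tai-IR. The aldehyde dehydrogenase gene Aldh, named after its value was seen, stood at 12.5 FPKM in GFP, 26.9 with Yki, 15.2 with Yki+Tai and 71.6 with Yki+Tai-IR. GstE genes are close copies in a cluster, and their separate values depend on how fragments were shared.

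The redox list as a whole was near the control, with a median of 0.07. Of 27 measured genes 1 was higher (mol) and 0 lower, beside 3.24% and 1.52% of all genes. The peroxiredoxin gene Jafrac1 was at 363 FPKM in GFP, 468 in Yki and 687 in Yki+Tai-IR. Catalase (Cat) was at 217 FPKM in GFP and 140 in Yki+Tai-IR.

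Genes of DNA replication were slightly above the control almost without exception. Of 48 measured members 47 lay above 0 and 1 below, beside 3985 above and 3814 below among all genes. None reached 2-fold in either direction, and the median was 0.24, against 0.11 in Yki. The helicase subunit gene Mcm5 stood at 74.1 FPKM in GFP, 86.7 with Yki, 72.4 with Yki+Tai and 103 with Yki+Tai-IR, a ratio of 1.39 (1.29 to 1.49). The primase gene DNApol-alpha50 was at 16.2, 21.8, 13.4 and 27.5 FPKM, and the clamp gene mus209 (PCNA) at 413, 385, 276 and 454. In all 3 genes Yki+Tai-IR was the highest library and Yki+Tai the lowest, and RfC3 had the same extremes. That order was not general: Orc6 was also highest in Yki+Tai-IR, at 17.6 FPKM, but lowest in GFP, at 10.4, with 11.3 in Yki+Tai.

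Cell cycle genes leaned the same way, with 25 of 31 above 0, 1 past 2-fold upward, 0 downward, and a median of 0.22. The securin gene pim was the 1 past the limit, at 44.3 FPKM in GFP, 80.7 with Yki, 56.6 with Yki+Tai and 104 with Yki+Tai-IR. The mitotic phosphatase gene stg (Cdc25) was at 48.2, 73.5, 69.4 and 79.1 FPKM, and the Aurora kinase gene aur at 29.4, 37.1, 39.4 and 46.8. Yki against GFP gave this list a median of 0.14 with 0 genes past 2-fold.

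Growth machinery was close to the control. The 44 ribosome biogenesis genes had their median at 0.04, with 0 higher and 0 lower. For the 71 genes of the mitochondrial ribosome it was 0.15, also with 0 and 0, and 52 of them lay above 0. For the 85 genes of the cytosolic ribosome the median was 0.07, with 0 higher and 1 lower, the low-expressed paralog RpL22-like at 0.493 against 2.54 FPKM. Oxidative phosphorylation genes had a median of 0.01 over 35 genes, and proteasome subunits -0.13 over 28, with 24 below 0. The median over all genes was 0.01 as deposited, -0.00 after rescaling by the median ratio and -0.05 after rescaling to the same FPKM sum, a shift that all these list medians share.

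Metabolic genes outside these lists showed single large values. ImpL3, which encodes lactate dehydrogenase, stood at 9.63 FPKM in GFP, 12.0 with Yki, 68.1 with Yki+Tai and 48.2 with Yki+Tai-IR, a ratio to GFP of 5.0 (3.98 to 6.35). ImpL3 was the only 1 of 16 measured glycolysis genes past the 2-fold limit in log2(FPKM + 1), and the median of the list was 0.02. The glucose transporter gene Glut1 was at 15.6 FPKM in GFP and 7.6 in Yki+Tai-IR. Its FPKM ratio was 0.488 (0.407 to 0.583), but its difference of -0.95 in log2(FPKM + 1) fell short of the limit. The amino acid transporter gene path was at 76.7 FPKM in GFP, 93.2 with Yki, 45.3 with Yki+Tai and 210 with Yki+Tai-IR, and was the only 1 of 21 insulin and TOR genes past 2-fold. The translation inhibitor gene Thor (4E-BP) was at 14.1, 17.7, 44.5 and 27.4 FPKM.

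Ecdysone-response genes divided, and the list median of -0.13 hides that. Of 36 measured members 6 were at least 2-fold lower and 4 higher, beside 1.52% and 3.24% of all genes. The secreted-protein gene ImpE2, induced in discs by ecdysone, stood at 1636 FPKM in GFP, 736 with Yki, 1286 with Yki+Tai and 677 with Yki+Tai-IR. ImpE1 stood at 122, 47.7, 92.2 and 46.4 FPKM, and ImpE3 at 57.3, 27.0, 17.5 and 26.1. For these 3 genes Yki+Tai-IR and Yki lay side by side below GFP, with ratios of Yki+Tai-IR to GFP of 0.414 (0.403 to 0.424), 0.380 (0.362 to 0.4) and 0.456 (0.382 to 0.543).

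Some receptors and early genes of the cascade were lower too, and others were not. Hr46 (Hr3), an early-late receptor, stood at 14.03 FPKM in GFP, 4.28 with Yki, 0.236 with Yki+Tai and 3.76 with Yki+Tai-IR, and Hr4 at 16.9, 6.27, 1.53 and 4.75. The zinc-finger gene br (Broad), which specifies pupal fate, stood at 315, 216, 283 and 147 FPKM, the lowest value being in Yki+Tai-IR. The early genes Eip75B and Eip78C did not reach the 2-fold limit, at 27.4 and 14.45 FPKM in Yki+Tai-IR against 48.4 and 27.3 in GFP. The receptor subunits did not follow: EcR was at 44.0 FPKM against 35.2 and usp at 34.9 against 36.2. Eip74EF was at 25.6 FPKM against 29.3.

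The members counted as higher were ImpL3, ftz-f1, ple and Ddc, which are a metabolic enzyme, a later-acting receptor and tanning enzymes. Of these, ple reached a mean of 1 FPKM only through Yki+Tai-IR. The ecdysone-inactivating enzyme gene Cyp18a1 stood at 2.34 FPKM in GFP, 8.43 with Yki, 23.2 with Yki+Tai and 5.22 with Yki+Tai-IR. Blimp-1, an ecdysone-induced repressor of ftz-f1, was not in the list and stood at 17.0, 9.75, 3.82 and 5.29 FPKM. Staging of the larvae beyond the wandering stage is not given, so differences in age between pools cannot be told apart from those of genotype.

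Cuticle and chitin genes had members in both directions. Of 122 deposited cuticle protein genes, 39 were measured, with 3 at least 2-fold higher and 4 lower, beside 3.24% and 1.52% of all genes. Lcp1 stood at 30.0 FPKM in GFP, 0.972 with Yki, 5.45 with Yki+Tai and 4.47 with Yki+Tai-IR, and Cpr49Ac at 205, 139, 150 and 72.1. Cpr49Ah went the other way, at 21.3, 105, 14.53 and 62.6 FPKM. The chitin list had 5 of 22 genes higher and 0 lower, beside the same shares, with a median of 0.29, and held the growth factor gene Idgf3 at 0.519 FPKM in GFP and 6.87 in Yki+Tai-IR, the deacetylase gene Cda5 at 1.56 and 9.27, and the chitin-binding gene Gasp at 90.9 and 206. Idgf3 reached a mean of 1 FPKM only through Yki+Tai-IR. The chitin synthase gene kkv was at 86.9 FPKM in GFP and 67.6 in Yki+Tai-IR.

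**Figure D4:**
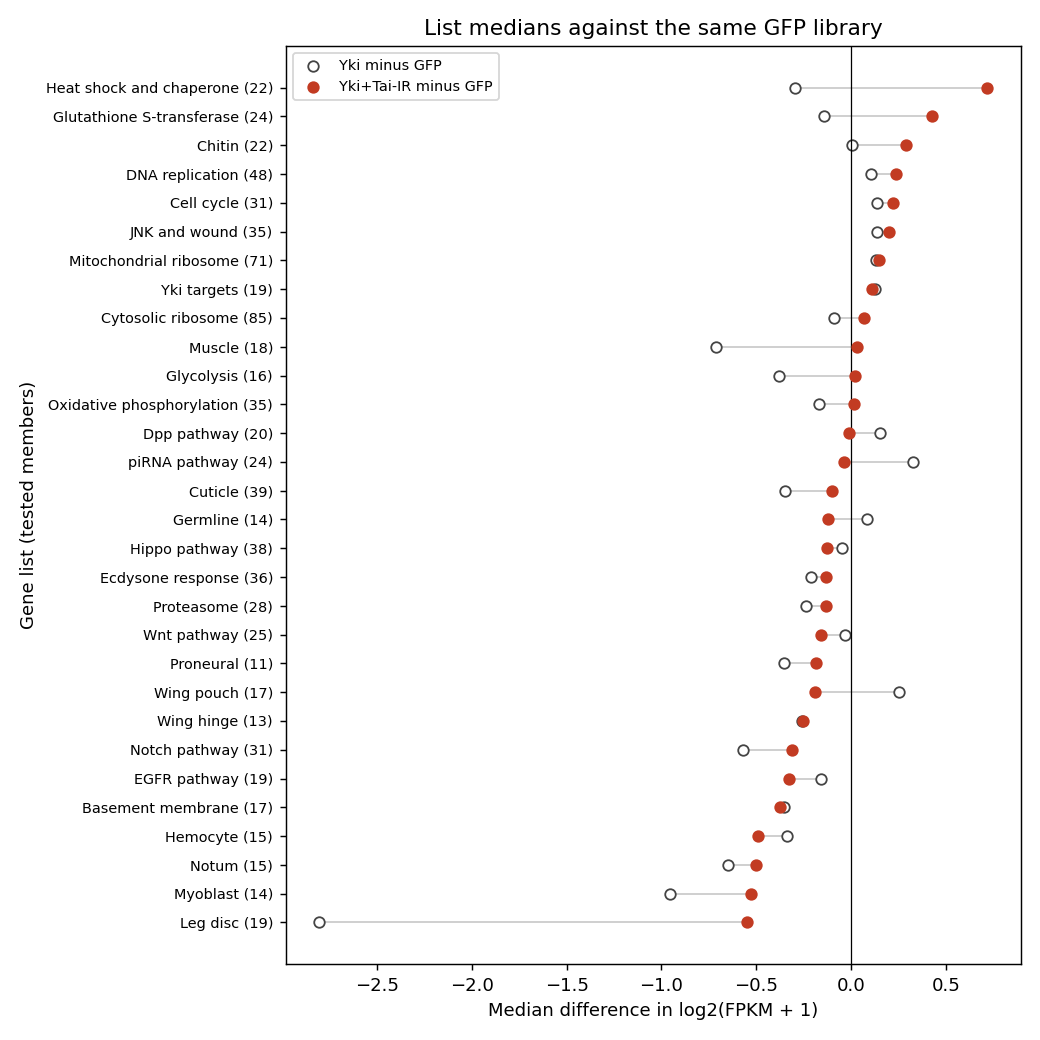
Each row is a gene list with its number of measured genes, and the x axis is the median difference in log2(FPKM + 1) from the GFP library, for Yki+Tai-IR (filled) and Yki (open). Heat shock genes lie at 0.72 and -0.30 (0.17 for Yki+Tai-IR over members averaging at least 5 FPKM), leg disc genes at -0.55 and -2.81, and DNA replication genes at 0.24 and 0.11; both series share the GFP library.

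The Notch list had a median below 0 in both Yki and Yki+Tai-IR, set against the same GFP. In the Notch list 26 of 31 genes lay below 0, with 0 past 2-fold in either direction and a median of -0.31. Yki against GFP had 10 of the 31 at least 2-fold lower and a median of -0.57. Enhancer of split genes, direct targets of Notch, differed in their distance from the control. HLHm3 stood at 75.9 FPKM in GFP, 29.6 with Yki, 30.4 with Yki+Tai and 63.7 with Yki+Tai-IR, and HLHmdelta at 32.0, 14.3, 11.4 and 29.1. HLHmbeta was at 179, 69.2, 122 and 105 FPKM, HLHmgamma at 15.9, 4.80, 4.68 and 11.4, and m2 at 108.1, 37.2, 32.5 and 68.1. The receptor N was at 91.7 FPKM in GFP and 69.2 in Yki+Tai-IR, its ligand Dl at 44.8 and 39.3, and Ser at 80.4 and 57.4.

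Proneural genes, which select sensory organ precursors, had 9 of 11 measured members below 0, with a median of -0.19. Of the 11, 1 was at least 2-fold lower, beside 1.52% of all genes. That gene was sens, at 5.12 FPKM in GFP, 2.00 with Yki, 0.675 with Yki+Tai and 1.71 with Yki+Tai-IR. The achaete-scute genes sc and ac were at 23.3 and 25.6 FPKM in Yki+Tai-IR, 17.99 and 15.1 in Yki, and 41.8 and 33.3 in GFP. Both lay between the Yki and GFP values.

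Patterning genes of the disc's own regions were mostly lower. In the notum list 14 of 15 genes lay below 0, with a median of -0.50 and 0 past 2-fold. The Iroquois genes mirr, caup and ara stood at 40.4, 39.3 and 48.2 FPKM in GFP and at 19.7, 24.5 and 30.9 in Yki+Tai-IR. For mirr the FPKM ratio was 0.488 (0.441 to 0.539), though its difference in log2(FPKM + 1) fell just short of the limit. In the wing pouch list 14 of 17 lay below 0, with a median of -0.19, whereas Yki against GFP had a median of 0.25. The pouch gene rn stood at 34.8 FPKM in GFP, 62.9 with Yki, 58.9 with Yki+Tai and 39.0 with Yki+Tai-IR, and kni at 17.8, 24.03, 25.8 and 12.2. For both, Yki+Tai-IR was the closest to GFP, or below it, among the libraries with a yki transgene.

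The Dpp and EGFR lists had 0 genes past 2-fold, and the Wnt list 1, sens, which was lower. The JAK-STAT list had 2 of 12 measured genes higher, chinmo and upd2, and 0 lower, beside 3.24% and 1.52% of all genes. Its median was -0.06, and upd2 reached a mean of 1 FPKM only through Yki+Tai-IR. The Dpp list had a median of -0.01 over 20 genes, the Wnt list -0.16 over 25 with 21 below 0, and the EGFR list -0.33 over 19. The kinase gene nmo was at 45.4 FPKM in GFP and 23.3 in Yki+Tai-IR, and the EGFR ligand gene Krn at 24.005 and 15.3. The collier gene kn, a Hedgehog target between the central wing veins, stood at 7.49 FPKM in GFP, 15.03 with Yki, 24.1 with Yki+Tai and 3.34 with Yki+Tai-IR, below GFP in that library alone. Wnt2 stood at 40.6, 10.7, 23.8 and 20.7 FPKM.

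All 17 measured basement membrane and integrin genes lay below 0, with a median of -0.38 and 0 past 2-fold. The collagen IV genes Cg25C and vkg stood at 12.8 and 8.97 FPKM in Yki+Tai-IR against 19.97 and 13.0 in GFP. The laminin genes LanA, LanB1 and LanB2 were at 67.0, 89.4 and 57.4 FPKM against 89.4, 116 and 80.4, and BM-40-SPARC, whose product binds collagen, at 49.2 against 79.5. In Yki the list had 2 members at least 2-fold lower and a median of -0.36. Hemocytes and fat body are known to supply much of this matrix. The hemocyte list, which shares the collagens and Ppn with it, had a median of -0.49 with 12 of 15 genes below 0, and its defining gene Hml was at 0.320 FPKM in Yki+Tai-IR and 0.842 in GFP. The part of these cells in the matrix values was not tested.

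Myoblasts that lie under the notum had all 14 measured markers below 0, with a median of -0.53. Of the 14, 1 was at least 2-fold lower (zfh1), beside 1.52% of all genes. The defining gene twi stood at 22.02 FPKM in GFP, 6.73 with Yki, 3.81 with Yki+Tai and 11.7 with Yki+Tai-IR. The adhesion gene hbs, used in myoblast fusion, stood at 22.97, 5.998, 5.67 and 11.1 FPKM. Each lay between the other libraries with a yki transgene and GFP. Differentiated muscle genes gave a mixed picture, with 2 of 18 higher and 1 lower, beside 3.24% and 1.52% of all genes. Mlc1 was at 5.99 against 1.34 FPKM, Tm2 at 4.03 against 1.42, and Argk at 245 against 576. Mlc1 and Tm2 reached a mean of 1 FPKM only through Yki+Tai-IR, so the filter favours their place above GFP.

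Genes of the leg disc, which is dissected from the same larva and lies next to the wing disc, had 17 of 19 members below 0. Of the 19, 2 were at least 2-fold lower (H15 and bab2), beside 1.52% of all genes, and the median was -0.55. In Yki against GFP 15 of the 19 were at least 2-fold lower, beside 3.02% of all genes, and the median was -2.81. The leg gene fd96Cb stood at 46.2 FPKM in GFP, was listed at 0 in Yki, and stood at 11.6 with Yki+Tai and 51.0 with Yki+Tai-IR. Sp1, needed for leg growth, stood at 43.9, 0.144, 12.4 and 27.9 FPKM, and dac, a leg-segment gene, at 40.2, 4.90, 10.1 and 29.2. The 10 lowest genes of Yki against GFP were fd96Cb, Sp1, AP-2, Lcp1, CG42456, fd96Ca, lbl, disco-r, H15 and Lcp4, and their values are a description, since the choice of the most extreme genes of Yki favours smaller differences in another library set against the same GFP. AP-2 stood at 37.6 FPKM in GFP, 0.569 in Yki and 23.6 in Yki+Tai-IR, and disco-r at 14.46, 0.435 and 9.32. H15 was at 9.20 FPKM in GFP, listed at 0 in Yki and at 3.26 in Yki+Tai-IR. Leaving out the leg, myoblast, muscle, hemocyte, fat body and heat shock lists left 239 genes higher and 113 lower in Yki+Tai-IR against GFP.

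**Figure D5:**
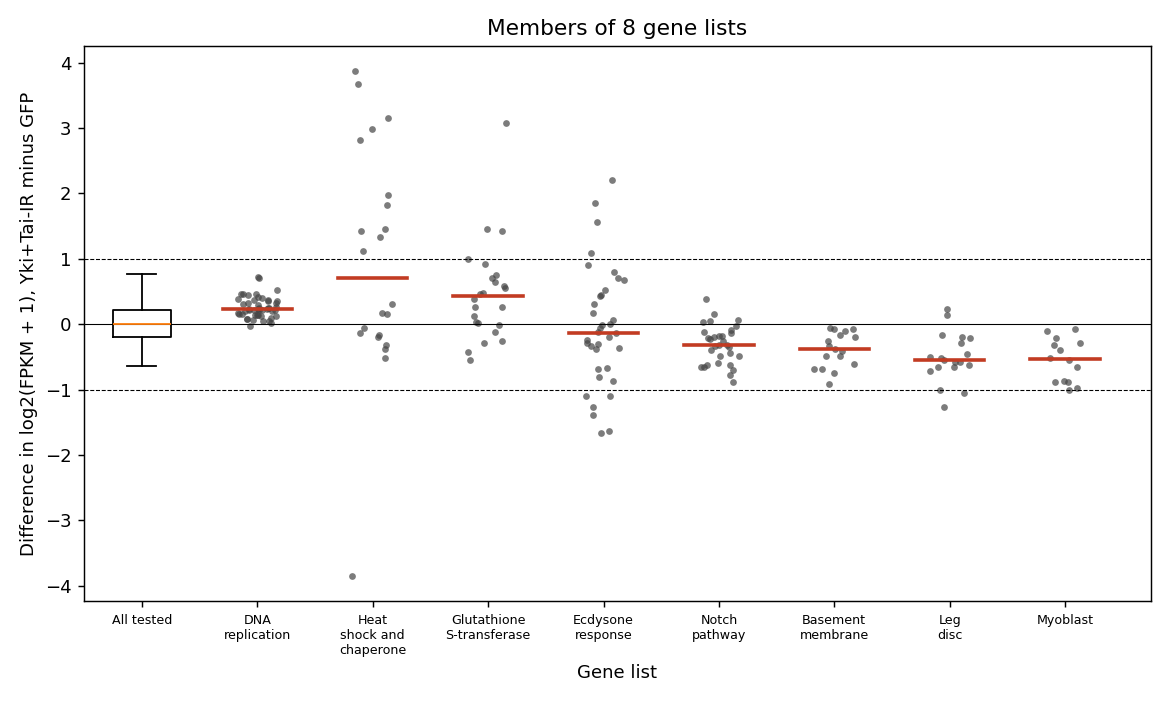
Points are single genes of 8 lists, with the difference in log2(FPKM + 1) between Yki+Tai-IR and GFP on the y axis, red bars at each list's median, and dashed lines at the 2-fold limits. The box for all 7804 genes spans the quartiles with whiskers from -0.64 to 0.78; DNA replication genes cluster narrowly above 0 while heat shock genes run from -3.85 to 3.87.

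Lists for salivary gland, gut, neurons and spermatocytes had few measured members. Of 11 salivary gland genes 3 reached a mean of 1 FPKM, all 3 glue genes and all counted as higher, beside 3.24% of all genes. They reached that mean through the Yki and Yki+Tai-IR libraries, so their place above GFP follows from the filter. With no FPKM filter the median over the 11 was 0.0. Sgs7 had a listed 0 in GFP, with 4.77 FPKM in Yki and 7.68 in Yki+Tai-IR, on 7 estimated fragments in the latter. The salivary gland regulator fkh was listed at 0 in both. Of 12 gut genes 1 was measured, of 13 neuronal genes 3, and of 17 spermatocyte genes 3. Fat body genes had 8 of 16 measured and summed to 47.3 FPKM in GFP and 38.3 in Yki+Tai-IR, and glia genes 7 of 12, at 262.2 and 298.0. All 13 tracheal genes were measured, at a sum of 1086.7 FPKM in GFP and 1267.1 in Yki+Tai-IR. Of the 13, 1 was higher and 0 lower, beside 3.24% and 1.52% of all genes. The hemocyte gene CG6579 (atilla), known as a marker of lamellocytes, stood at 1.19 FPKM in GFP, 4.01 with Yki, 3.58 with Yki+Tai and 4.99 with Yki+Tai-IR.

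Immune genes had 2 of 9 measured members higher and 1 lower, beside 3.24% and 1.52% of all genes. The recognition gene PGRP-SA stood at 0.402 FPKM in GFP, 0.678 with Yki, 0.9505 with Yki+Tai and 4.68 with Yki+Tai-IR, and the NF-kappaB gene Dif at 3.49, 10.4, 16.7 and 11.2. The antimicrobial peptide gene Drs was at 3.08, 2.60, 6.46 and 0.747 FPKM, which rests on 4 estimated fragments in GFP and 1 in Yki+Tai-IR. Dif was high in all libraries with a yki transgene. PGRP-SA was high in Yki+Tai-IR, and reached a mean of 1 FPKM only through that library.

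The lowest differences of the comparison were mostly at loci where genes overlap or stand end to end, and the kit does not mark strand. CG42303 (Snup) and CG42304 share 1 annotated span on arm 3L. CG42303 stood at 11.3 FPKM in GFP, 13.0 with Yki, 14.6 with Yki+Tai and 0.0809 with Yki+Tai-IR, while CG42304 stood at 0.00174, 0.00366, 0.0735 and 10.5. Their sum was close in both libraries, at 11.3 FPKM in GFP and 10.6 in Yki+Tai-IR. CG42637 and the guanylyl cyclase gene Gyc76C likewise overlap, and summed to 15.9 FPKM in GFP and 15.3 in Yki+Tai-IR, with CG42637 itself at 8.02, 5.97, 0.0188 and 0.0161 FPKM.

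CG30356, which overlaps gcl, stood at 58.1 FPKM in GFP, 55.3 with Yki, 0.242 with Yki+Tai and 1.45 with Yki+Tai-IR, and gcl did not make up the difference, at 10.9, 13.1, 12.6 and 9.39 FPKM. The heat shock cognate gene Hsc70-2 stood at 14.2, 14.1, 0.0405 and 0.0608 FPKM, and its neighbour CG31157 at 7.56 and 8.81 in GFP and Yki and listed at 0 in Yki+Tai and Yki+Tai-IR. CG12519 stood at 5.93 and 5.72 FPKM in GFP and Yki and was listed at 0 in the others. These 4 genes were present in GFP and Yki and all but absent from Yki+Tai and Yki+Tai-IR. CG42500 was low in every library with a yki transgene, at 23.6 FPKM in GFP and 1.59, 1.82 and 1.83 in the others. Overlap with another gene held for 37.5% of 248 higher genes, 42.7% of 117 lower genes and 44.4% of 7671 genes with a position.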

How the data were processed

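RNA of pooled wing discs was sequenced in 4 libraries, 1 per genotype, from unstranded TruSeq libraries. The tools named in the submitters' processing notes are CASAVA 1.4, TopHat2 2.0.12 and Cuffdiff 2.2.1, with the dm6 build. The annotation and the options were not given in the sources used here. The authors deposited FPKM values, which divide by transcript length and library size, so genes that take more of a library lower the rest.

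The members and gene lists were chosen with earlier results of these data known. Genes were kept when their FPKM averaged 1 or more, and 316 small-RNA genes were left out. Differences were taken in log2(FPKM + 1) of the deposited values. With 1 library per genotype there is no test. Depth was estimated as the number of fragments at which low FPKM values become whole: with 942 to 1113 genes per library, 73.0% to 76.4% then came within 0.08 of whole fragments (16.0% would by chance), after 210 nt was subtracted from the transcript length. Ratios carry exact Clopper-Pearson intervals at 95% on those estimated fragments, which cover counting error only. Ratios with no interval belong to genes with no unique match in the annotation. File symbols were matched to Ensembl release 115: 13734 were found, including 3205 under former symbols, and 256 were not.

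Genes were named by rule: the 10 highest and 10 lowest differences of Yki+Tai-IR and of Yki against GFP, set genes for transgenes, compartments, Yki targets and the germline, and in each list up to 4 genes that differed most. The runs of neighbouring genes and the genes said to be named after their values were seen fall outside it, as do list members given as examples that differed little. The counting step was tested on simulated libraries. Alternatives were other pseudocounts, FPKM filters and scalings, keeping small-RNA genes, and leaving out genes listed at 0, lists of other tissues and heat shock, overlapping genes or genes with few fragments. The software was pandas 2.3.3, numpy 2.4.6, matplotlib 3.10.9 and scipy 1.17.1 under Python 3.11.15.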

Additional observations from a re-analysis of the deposited data

How the results depend on the processing

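The excess of higher over lower genes in Yki+Tai-IR against GFP (253 and 119) was seen under every alternative run, but the counts followed the treatment of low values. With a pseudocount of 0.1 they were 354 and 217, and with 5 they were 124 and 40. A mean of 5 FPKM or more gave 139 and 68 of 6818 genes, and no FPKM filter 317 and 146. Keeping small-RNA genes gave 258 and 197. Rescaling to the same FPKM sum gave 239 and 141, and by the median ratio 251 and 124. Leaving out genes listed at 0 gave 224 and 108. The remaining alternatives were chosen after seeing the data: without overlapping genes the counts were 160 and 69 of 4399 genes, and with 50 estimated fragments or more 180 and 80. Of 284 list medians recomputed under alternatives 0 reversed past the tolerance, 29 moved by over 0.1, and 9 small medians took the other sign. Of 216 values of named genes 91 moved, under other pseudocounts and under rescaling. That 0 reversed was fixed in advance, since a pseudocount cannot change the sign of a difference. The factors for rescaling to the same sum, 0.9775 to 1.0329, were too small to reverse a 2-fold difference.

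No paired analysis was possible because there is 1 library per genotype. Leaving out a library likewise left nothing to compare, and depth sets only the counting error. Differences of genes under 5 FPKM rest on few fragments.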

Other observations

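Some noncoding RNAs differed between the libraries, and are given as values chosen after they were seen. The stress-induced noncoding RNA Hsromega stood at 48.0 FPKM in GFP, 152 with Yki, 124 with Yki+Tai and 56.8 with Yki+Tai-IR. The dosage compensation RNAs roX1 and roX2, which are expressed in males, stood at 136 and 103 FPKM in GFP, 324 and 270 in Yki, and 202 and 144 in Yki+Tai-IR. Both belong to the list of dosage compensation and sex determination genes. Of its 11 measured members 0 were 2-fold higher and 0 lower in Yki+Tai-IR, beside 3.24% and 1.52% of all genes, with a median of 0.07. The sex of the larvae is not given in the labels. Genes on the X chromosome had a median difference of -0.06 over 1319 genes in Yki+Tai-IR against GFP.

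The small nucleolar RNA host genes Uhg1 and Uhg5 stood at 11.8 and 21.2 FPKM in GFP, 18.7 and 33.6 with Yki, 17.5 and 20.4 with Yki+Tai, and 51.3 and 58.2 with Yki+Tai-IR. Of the 316 small-RNA genes, 101 had signal in GFP, and 52 of these were listed at 0 in Yki+Tai-IR against 34 in Yki.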
